A study of Mus musculus with 6 samples.

Results

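Wnt pathway transcripts were examined in rhombomere 4, the hindbrain segment patterned by the homeobox gene Hoxb1, in Hoxb1 mutant and wild-type mouse embryos. The set held 10 genes: the ligands Wnt5a and Wnt7a, the secreted inhibitors Sfrp1 and Sfrp2, the receptor Fzd7, the transducer Ctnnb1 (β-catenin), the nuclear factors Tcf7l1, Tcf7l2 and Lef1, and Axin2, a target that also acts as an inhibitor. Every probe set of the array annotated with 1 of these symbols alone was taken, which gave 22 of the 22626 probe sets tested. The 3 mutant samples and the 3 wild-type samples, labelled mutant and wt for Hoxb1, were each a pool of rhombomere 4 segments from several embryos at stage E10.5, and the submitters describe the pools as biologically independent. The labels add that tissue of the branchial arches around the segment was present, and they give neither the mutant allele nor the strain. Pools of tissue cannot tell fewer cells of a type from less RNA per cell.

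Wnt proteins are secreted signals that bind Frizzled receptors. In the canonical branch, binding protects β-catenin from a destruction complex that contains Axin proteins, and β-catenin then acts with Tcf and Lef proteins on target genes. In the early hindbrain this branch is known for promoting proliferation and dorsal fates, while Wnt5a is best known for signalling without β-catenin in cell polarity and migration.

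Array values are intensities as deposited, 1 per probe set, scaled by the authors to a common mean on each array. Bacterial control probe sets, which have no mouse target, served as a measure of background, with a 95th percentile of 61.5 over all arrays. Hoxb1 itself gave 60.8, 35.3 and 50.03 in mutants, against 341, 378 and 588 in wild type, at least 6.88-fold lower in mutants with a limma adjusted p of 0.0695. The mutant values all lay below the background percentile. No source used here says whether this probe set covers the altered part of Hoxb1. Wild-type replicates 2 and 3 stood apart in 18S ribosomal RNA signal. On the log2 scale it averaged between 6.36 and 7.03 on the mutant arrays, against 6.44 in wild-type replicate 1, 12.1 in replicate 2 and 11.3 in replicate 3. Summed signals of 2 marker lists did not overlap between groups, and bright genes weigh most in such sums. Among single probe sets, every mutant array was below every wild-type array in 7.08% of all tested, and above in 4.88%. The matching share for summed lists was not computed. Cranial crest and arch mesenchyme markers, with 10 of 11 genes measured, summed to between 12355 and 12856 in mutants, against 13280 to 14778 in wild type (9 of 10 with a lower mean, 0 below background on every array). Neural progenitor markers, with 8 of 8 measured, summed to between 8393 and 9148 in mutants, against 9162 to 10348 in wild type (6 of 8 with a lower mean, 0 below background on every array). In the other 7 marker lists, for roof plate, neurons, otic vesicle, endothelium, erythroid cells, surface epithelium and macrophages, the summed signals of the groups overlapped. Neuron markers had a lower mean in mutants in 7 of 7 genes, with a median log2 difference of -0.21, and otic markers in 3 of 3, with a median of -0.40, beside -0.12 for the crest and mesenchyme list and -0.16 for the progenitor list. The neuron sums ran from 10607 to 13529 in mutants, against 12864 to 15286 in wild type, and the otic sums, with 3 of 6 genes measured, from 773 to 1107 in mutants, against 915 to 1761 in wild type. Over all named genes, each by its brightest probe set, 54.5% had a lower mean in mutants and the median log2 difference was -0.02. An unadjusted limma p under 0.05 was reached by 2 of the 8 progenitor markers, all lower in mutants, beside 3.76% of all genes. No marker of the other lists reached it. The part of the 18S signal and of these cell types in the differences below was not tested beyond the settings named with them.

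Upstream sequences are shown for the members with a probe set of unadjusted p under 0.05, where the RefSeq promoter table held them, so that the letters known to be bound by Tcf and Lef factors and by Hox proteins and their cofactors can be set beside the expression values. They are the 250 bases before the annotated start, read 5′ to 3′ on the gene's strand, in assembly GRCm38.p6. Capitals mark matches on either strand to CAAAG (the core bound by the HMG box of Tcf and Lef proteins), TGATNNAT (Hox with Pbx) and TGACAG (Meis).
Tcf7l1, chr6:72789046-72789295, minus strand: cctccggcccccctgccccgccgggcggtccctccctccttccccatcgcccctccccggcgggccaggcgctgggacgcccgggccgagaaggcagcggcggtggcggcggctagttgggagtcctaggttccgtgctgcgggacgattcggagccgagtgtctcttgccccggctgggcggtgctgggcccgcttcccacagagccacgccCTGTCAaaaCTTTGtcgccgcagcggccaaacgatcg
Sfrp2, chr3:83766071-83766320, plus strand: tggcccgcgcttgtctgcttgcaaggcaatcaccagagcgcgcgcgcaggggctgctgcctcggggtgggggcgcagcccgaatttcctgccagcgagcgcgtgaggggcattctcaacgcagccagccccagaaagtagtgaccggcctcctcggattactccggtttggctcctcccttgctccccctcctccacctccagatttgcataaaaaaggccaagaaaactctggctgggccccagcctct
Axin2, chr11:108920099-108920348, plus strand: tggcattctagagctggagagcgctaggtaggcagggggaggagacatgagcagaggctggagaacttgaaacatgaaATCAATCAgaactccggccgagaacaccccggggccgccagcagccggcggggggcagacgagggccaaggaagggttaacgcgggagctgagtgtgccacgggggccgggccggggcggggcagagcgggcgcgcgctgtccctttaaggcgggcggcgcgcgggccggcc
Fzd7, chr1:59481897-59482146, plus strand: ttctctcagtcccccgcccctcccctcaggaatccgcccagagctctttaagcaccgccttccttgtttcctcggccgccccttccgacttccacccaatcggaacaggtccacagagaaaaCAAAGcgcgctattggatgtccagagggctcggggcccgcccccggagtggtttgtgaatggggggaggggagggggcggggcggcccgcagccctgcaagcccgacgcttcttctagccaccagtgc
The Tcf7l1 sequence held the Meis letters, on the reverse strand, with a first base at -37 from the start, and the Tcf core 3 bases further on, at -28 and also on the reverse strand. The 2 matches do not overlap. The Axin2 sequence held the Hox with Pbx letters on the reverse strand at -172, the Fzd7 sequence held the Tcf core at -128, and the Sfrp2 sequence held none of the 3. Among all 32851 promoters of the table, the same 250 bases held the Tcf core in 48.6%, the Hox with Pbx letters in 7.68% and the Meis letters in 15.9%. These matches are letters in a window and no evidence of binding.

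None of the 22 probe sets passed the threshold of 0.05 after adjustment over all probe sets tested, where 0 of 22626 passed (0%) and 1303 had an unadjusted p under 0.05, and the limma adjusted p of the members ran from 0.720 to 0.998. That unadjusted level was reached by 5 member probe sets, 1 each of Wnt5a, Sfrp2, Fzd7, Tcf7l1 and Axin2, all with a lower mean in mutants. The Fzd7 probe set among them, 1450043_at, lay below the background percentile on every array. These 5 are 22.7% of the 22, beside 3.88% of all probe sets lower at that level and 5.76% in either direction. The members were chosen with earlier results of these data known, so this contrast is no measure of an excess in the pathway. No member was higher at that level, beside 1.88% of all. Scaling moves this background: lower and higher probe sets made up 3.09% and 2.88% with quantile normalization, with 4 members lower and 0 higher, and 2.50% and 2.95% with arrays centred on their median, with 3 members lower and 0 higher. The highest mutant array was lower than the lowest wild-type array in 7 of the 22 (31.8%), beside 7.08% of all probe sets. The dim Fzd7 probe set was among these 7. The reverse, every mutant array above every wild-type array, was seen in 0 members, beside 4.88% of all. The median log2 difference of the members, mutant minus wild type, was -0.17, beside -0.02 over all probe sets tested. The count of 5 was not steady. It was 2 without mutant replicate 3, 3 without mutant replicate 2 and 3 without wild-type replicate 2, all lower in mutants. Without wild-type replicate 3 it was 4, of which 3 were lower and 1, Tcf7l1 1450117_at, was higher in mutants. Without mutant replicate 1 it was 6, all lower. High 18S signal occurred only on wild-type arrays, so an 18S covariate overlaps with genotype and the fit cannot fully separate them. With the 18S signal as a covariate, a setting chosen after seeing the data, the member count was 0. The count over all probe sets was 908, against 1303 without the covariate. The median log2 difference of the members was then -0.14. With both wild-type arrays of high 18S signal left out, likewise chosen later, it was 1, a Tcf7l2 probe set that was higher in mutants, with 961 over all probe sets and a member median of -0.17.

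**Figure D1:**
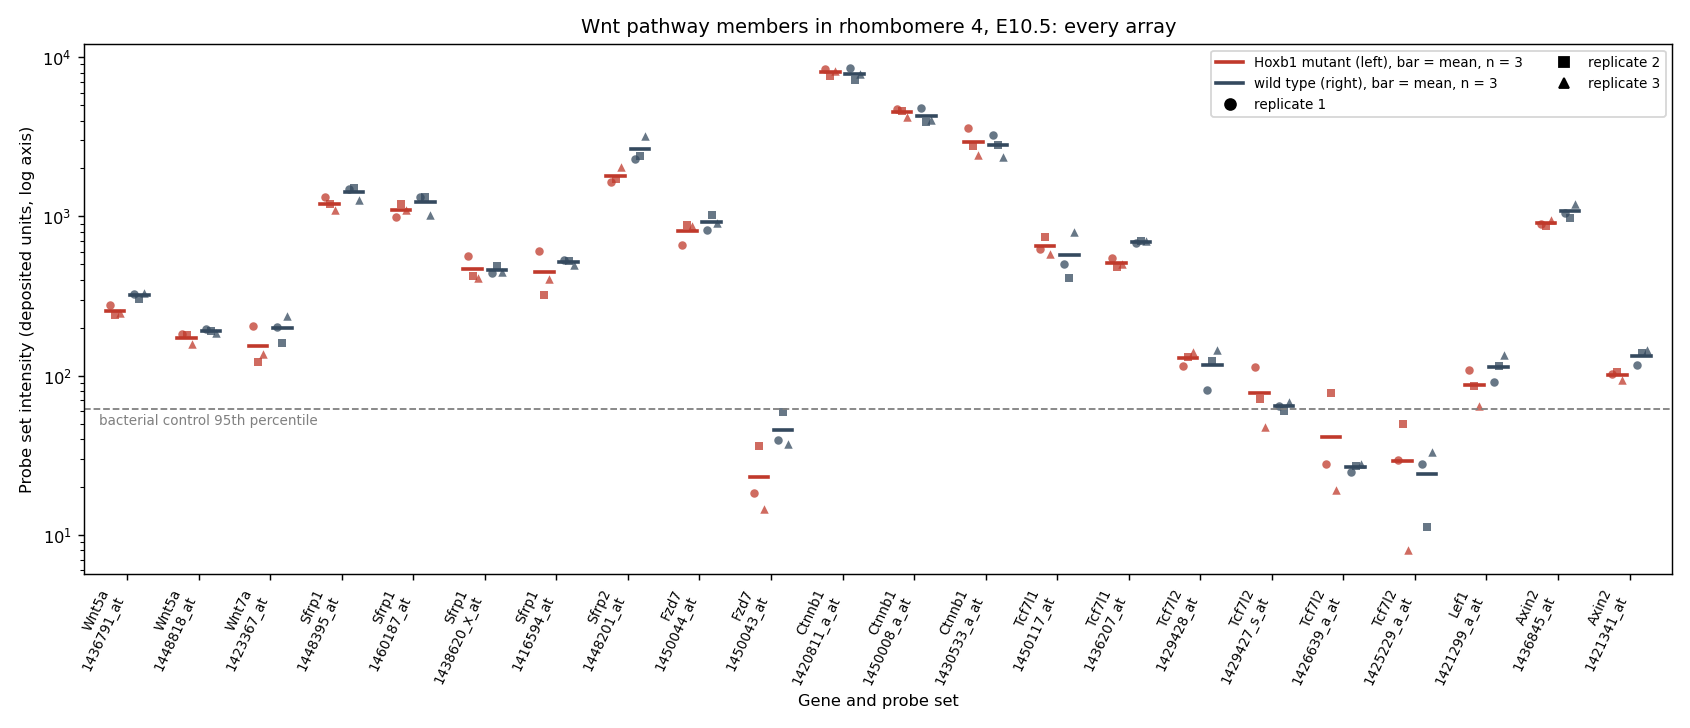
Intensity of each of the 22 member probe sets on each array, on a log axis, with Hoxb1 mutant arrays left of wild-type arrays for each probe set, symbols for the replicate number and bars for the mean of 3. The dashed line is the background percentile of 61.5; both groups lie below it in Fzd7 1450043_at and Tcf7l2 1425229_a_at.

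Wnt5a, a ligand made in growing mesenchyme and neural tissue, had a lower mean in mutants in both of its probe sets, neither of which passed the adjusted test. The probe set 1436791_at read 278, 239 and 249 in mutants, against 328, 303 and 328 in wild type. The groups did not overlap, and the highest mutant value lay 8.29% below the lowest wild-type value. The log2 difference was -0.31 (SE 0.11, 95% interval -0.58 to -0.04), with an unadjusted p of 0.0308 and an adjusted p of 0.833 in limma. With the 18S covariate it was -0.34, with an unadjusted p of 0.102. The second probe set, 1448818_at, read 182, 179 and 158 in mutants, against 197, 190.4 and 186 in wild type. These groups were also separate, but only by 2.12% of the lowest wild-type value, and the log2 difference was -0.13 (SE 0.11, 95% interval -0.39 to 0.13).

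Wnt7a, a ligand of the neural tube, had a single probe set with overlapping groups. It read 204, 122 and 137 in mutants, against 201, 160.3 and 238 in wild type. Mutant replicate 1 stood above wild-type replicates 1 and 2. The log2 difference of -0.36 (SE 0.22) had a 95% interval of -0.88 to 0.17. It was -0.56 without mutant replicate 1 (unadjusted limma p of 0.0271) and -0.22 without mutant replicate 2.

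Among the secreted inhibitors, which bind Wnt proteins outside the cell, Sfrp2 had separate groups, without passing the adjusted test. Its probe set 1448201_at read 1657, 1718 and 2040.0 in mutants, against 2291, 2402 and 3212 in wild type. All 3 mutant arrays lay below all wild-type arrays, and the mutant level was 0.692 of the wild-type level (log2 difference -0.53, SE 0.17, 95% interval -0.93 to -0.13). The unadjusted limma p was 0.0172 and the adjusted p 0.833. Wild-type replicate 3 was the highest array by a wide margin, and without it the log2 difference was -0.38. With the 18S covariate it was -0.40, with an unadjusted p of 0.147.

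Sfrp1, a paralog of Sfrp2 with an overlapping role in Wnt inhibition, was measured by 4 probe sets, and the groups overlapped in each of them. The brightest, 1448395_at, read 1318, 1189 and 1092 in mutants, against 1491, 1516 and 1263 in wild type, a log2 difference of -0.24 (SE 0.13, 95% interval -0.56 to 0.07). Only mutant replicate 1 reached into the wild-type range. The probe sets 1460187_at and 1416594_at had log2 differences of -0.16 (SE 0.15) and -0.26 (SE 0.23). Single arrays moved both: the difference of 1416594_at was -0.51 without mutant replicate 1 (unadjusted limma p of 0.0134) and -0.06 without mutant replicate 2, and that of 1460187_at was -0.09 without mutant replicate 1 and -0.28 without wild-type replicate 3. In 1438620_x_at, a type of probe set that can share probes with other transcripts, the difference was 0.01 (SE 0.15).

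Fzd7, a Frizzled receptor, read 663, 889 and 869 in mutants with its bright probe set 1450044_at, against 825, 1025 and 911 in wild type. The groups overlapped, and the log2 difference was -0.19 (SE 0.16, 95% interval -0.57 to 0.19). It was -0.06 without mutant replicate 1, -0.11 without wild-type replicate 2, -0.07 with the 18S covariate and -0.04 without both high-18S arrays. The second probe set, 1450043_at, read 18.4, 36.4 and 14.5 in mutants, against 39.7, 59.3 and 37.4 in wild type. Its groups were separate, but all 6 values lay below the background percentile, so no fold is given for it, although its unadjusted limma p was 0.0273 (adjusted 0.833).

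Ctnnb1, which encodes β-catenin, a transducer of Wnt signals and also a part of adherens junctions, was close to wild type in each of its 3 probe sets. The brightest, 1420811_a_at, read 8429, 7584 and 8179 in mutants, against 8539, 7158 and 7805 in wild type. The 2 groups were interleaved. The log2 difference was 0.04 (SE 0.12), and its 95% interval of -0.24 to 0.33 leaves room for changes of that size in either direction. The probe sets 1450008_a_at and 1430533_a_at gave 0.09 (SE 0.13, 95% interval -0.22 to 0.39) and 0.06 (SE 0.19, 95% interval -0.40 to 0.52). All 3 turned negative with the 18S covariate, at -0.07, -0.08 and -0.10.

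Tcf7l1, a Tcf factor that mainly represses Wnt targets, held the smallest p of the set in one probe set and a higher mean in mutants in the other. The probe set 1436207_at read 547, 482 and 503 in mutants, against 676, 705 and 702 in wild type. The groups were separated by 19.2% of the lowest wild-type value, the widest gap among the 7 separate member probe sets. The mutant level was 0.741 of wild type (log2 difference -0.43, SE 0.11, 95% interval -0.69 to -0.18), with an unadjusted limma p of 0.00551 and an adjusted p of 0.720. The unadjusted limma p was under 0.05 in 14 of 16 other settings, all refits of the same arrays. The like count was 12 for Sfrp2 1448201_at, 8 for Wnt5a 1436791_at and 7 for Axin2 1421341_at. It was 9 of 15 for Fzd7 1450043_at. For Tcf7l1 1436207_at the exceptions were both 18S settings. Its log2 difference was -0.39 with the covariate (unadjusted limma p of 0.0568) and -0.40 without the high-18S arrays. The second probe set, 1450117_at, read 623, 739.7 and 585 in mutants, against 500.5, 410.1 and 799.7 in wild type. Wild-type replicates 1 and 2 were below all mutants there and replicate 3 above them, so that the log2 difference was 0.23 (SE 0.25, 95% interval -0.36 to 0.82). It was 0.50 without wild-type replicate 3 (unadjusted limma p of 0.0261) and 0.03 without wild-type replicate 2. The difference between these probe sets was not tested. Tcf7l1 was formerly called Tcf3, but the probe sets that the annotation lists as Tcf3 belong to another gene, an E-protein, and were not counted here.

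Tcf7l2, a Tcf factor that can activate or repress, had 4 probe sets of low signal, with overlapping groups in all of them. The brightest, 1429428_at, read 116, 131 and 140.4 in mutants, against 80.8, 123 and 145 in wild type. Wild-type replicate 1 was the low array, and the log2 difference was 0.16 (SE 0.20, 95% interval -0.32 to 0.65). It was -0.05 without wild-type replicate 1, 0.52 with the 18S covariate (unadjusted limma p of 0.0524) and 0.58 without both high-18S arrays (unadjusted limma p of 0.0318). The probe set 1429427_s_at, above the background percentile on 4 arrays, gave 0.16 (SE 0.25). The remaining 2 exceeded that percentile on 1 and 0 arrays, so no direction is drawn from them.

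Lef1, which mainly activates Wnt targets and is itself often a target, read 109, 86.7 and 64.95 in mutants, against 92.0, 116 and 135 in wild type with its only probe set. The signal was low: every array exceeded the background percentile of 61.5, but mutant replicate 3 only narrowly. The groups overlapped through mutant replicate 1. The log2 difference was -0.35 (SE 0.20, 95% interval -0.83 to 0.13), and it was -0.10 with the 18S covariate. It was -0.50 without mutant replicate 1 (unadjusted limma p of 0.0466) and -0.19 without mutant replicate 3.

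Axin2, a scaffold of the destruction complex and a widely used reporter gene of canonical Wnt signalling, had a lower mean in mutants in both of its probe sets, neither of which passed the adjusted test. The bright one, 1436845_at, read 898, 865 and 949 in mutants, against 1048, 983 and 1203 in wild type. The groups were separate by 3.44% of the lowest wild-type value, with a log2 difference of -0.25 (SE 0.12, 95% interval -0.54 to 0.05). The dimmer one, 1421341_at, read 103, 106 and 94.5 in mutants, against 117, 139.6 and 145 in wild type. Its log2 difference was -0.35 (SE 0.12, 95% interval -0.65 to -0.06), with an unadjusted limma p of 0.0248 and an adjusted p of 0.833. With the 18S covariate the 2 probe sets gave -0.23 and -0.21, with unadjusted limma p of 0.259 and 0.258. That of 1421341_at was under 0.05 in 7 of 16 other settings.

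**Figure D2:**
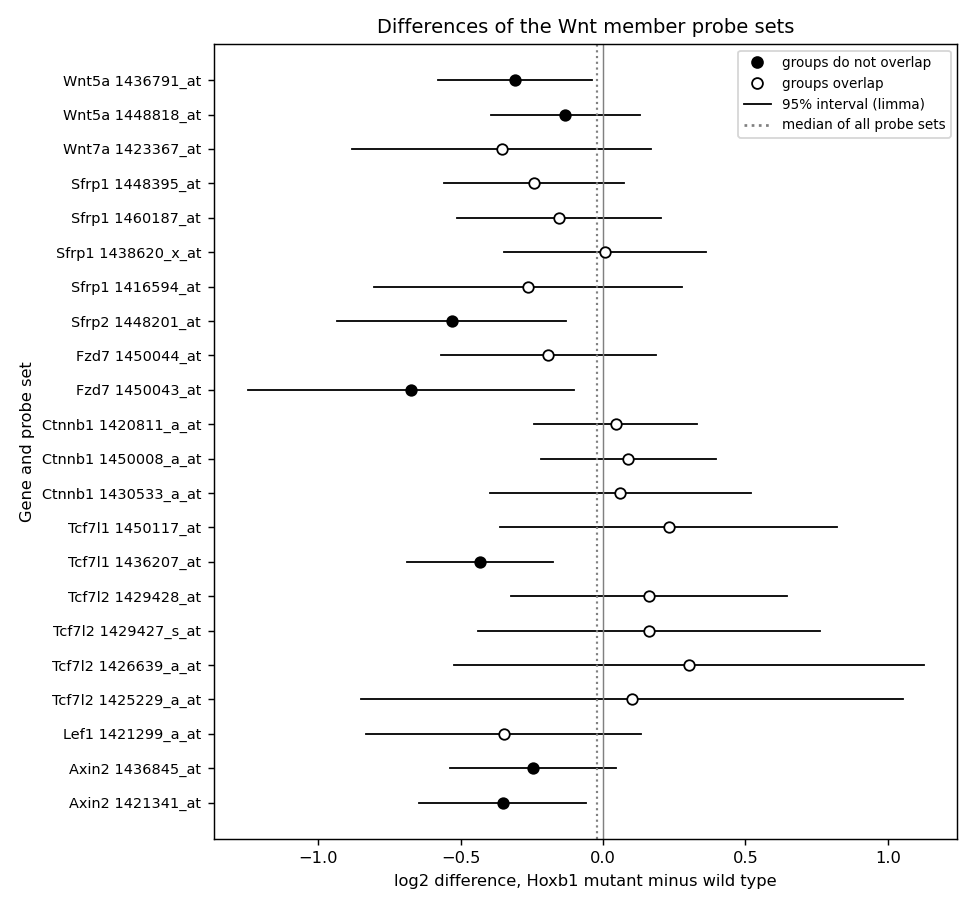
Log2 difference, Hoxb1 mutant minus wild type, of each member probe set with its 95% limma interval, filled where the groups do not overlap. The 7 filled points are all below 0, the 3 Ctnnb1 points lie between 0.04 and 0.09, and the dotted line marks the median of all probe sets at -0.02.

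By gene, 6 of the 10 (Wnt5a, Wnt7a, Sfrp2, Fzd7, Lef1 and Axin2) had a lower mean in mutants in every probe set. Of these, Wnt7a, Sfrp2 and Lef1 had a single probe set, that of Lef1 of low signal, and 1 of those of Fzd7 was within background. The same share over all genes was not computed. By the brightest probe set, 54.5% of all genes had a lower mean in mutants. Ctnnb1 had a higher mean in each of its 3 probe sets. For Tcf7l2 the mean was higher in mutants in the 2 probe sets with several arrays above background. In Sfrp1 and Tcf7l1 the probe sets differed in direction. A lower mean in mutants was found in 13 of the 22 probe sets (59.1%), close to the 54.2% of all probe sets tested. In the 7 separate probe sets of Wnt5a, Sfrp2, Fzd7, Tcf7l1 and Axin2, an exact two-sided permutation test of the array labels gave 0.1 each. That is the smallest p that 3 against 3 arrays allow. Separate groups fix this value in advance, so it adds nothing to the separation itself. Mutant replicate 1 was the highest mutant array in 12 of the 22 member probe sets, and wild-type replicate 3 the highest wild-type array in 11. The same counts over all probe sets were not computed. The median intensity of all tested probe sets was 214, 191 and 187 on mutant replicates 1, 2 and 3. On the wild-type arrays it was 204, 208 and 204. Over 16 other settings, 14 of the 22 kept their sign. In separate groups, leaving out an array cannot turn the sign, so for those 7 probe sets the fits with arrays left out say nothing of stability. The sign turned in some setting in the 3 Ctnnb1 and 4 Tcf7l2 probe sets and in Sfrp1 1438620_x_at.

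**Figure D3:**
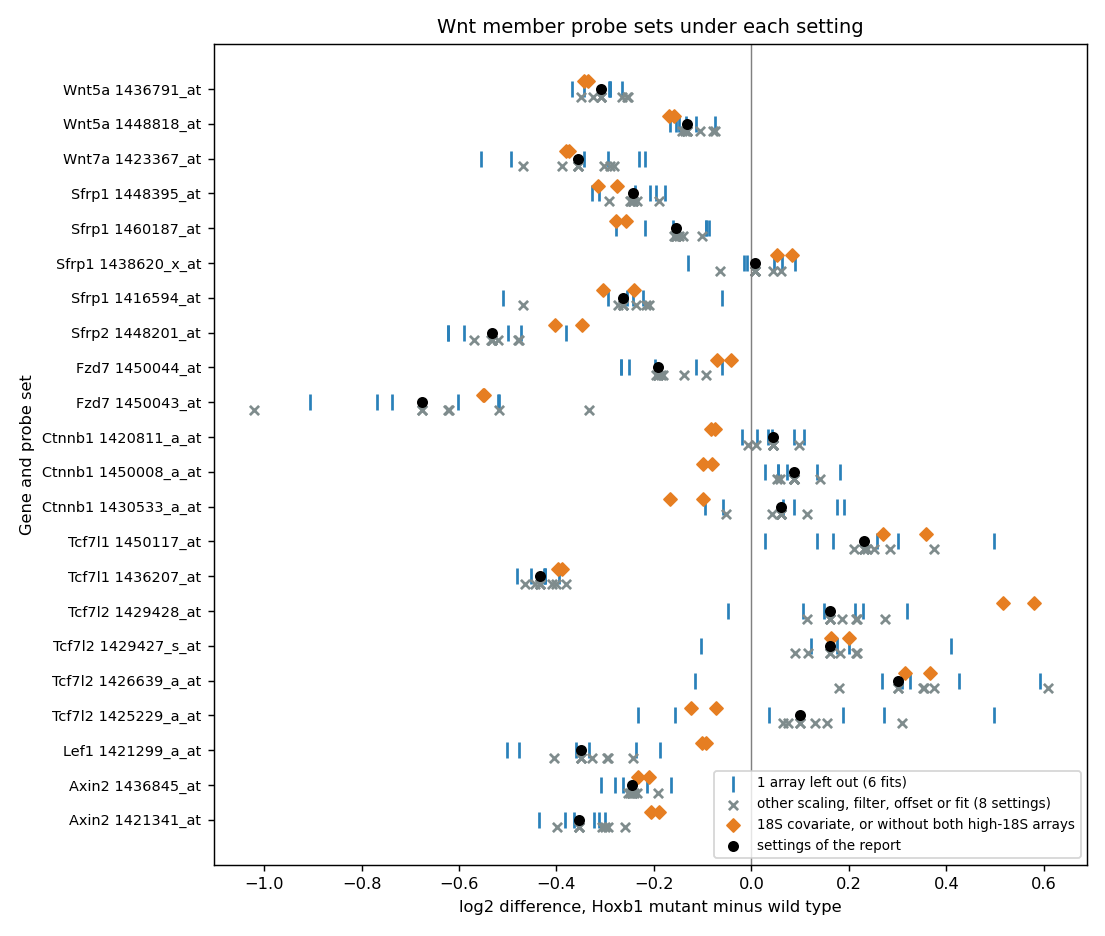
Log2 difference, Hoxb1 mutant minus wild type, of each member probe set with the settings of the report (black circles), with each array left out (blue bars), with other scaling, filter, offset or fit (grey crosses) and with the 18S settings (orange diamonds). The points of Tcf7l1 1436207_at stay between -0.48 and -0.38, while those of Tcf7l2 1425229_a_at spread from -0.23 to 0.50.

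The probe sets closest in pattern to Tcf7l1 1436207_at were those of Usp18, an interferon-induced protease, Tmem9b and the cadherin Cdh22. Likeness was measured as the root mean square distance of mean-centred log2 values over the 6 arrays, at 0.05, 0.05 and 0.06 for Usp18, Tmem9b and Cdh22, beside a median of 0.28 over all named probe sets. Usp18 exceeded the background percentile on 2 of the 6 arrays. Tmem9b read 501, 440.1 and 414 in mutants, against 619, 617 and 619 in wild type.

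Other genes of the pathway were taken from 6 lists of textbook components, 93 genes in all, of which 82 were measured and represented by their brightest probe set. None passed the adjusted test, where 0 of the 12393 genes did (0%). At an unadjusted p under 0.05, 4 genes (4.88%) were lower and 1 (1.22%) higher in mutants, beside 3.76% and 1.70% of all genes. Their median log2 difference was -0.05, against -0.02 over all genes. A lower mean in mutants was found in 49 of the 82, beside 54.5% of all genes.

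The 4 lower genes were Tle5, Pygo2, Ccnd1 and Nkd2. Of 12 measured nuclear factors, 10 had a lower mean in mutants, with a median log2 difference of -0.15. Tle5, a short Groucho-family protein that modulates the corepressors of Tcf factors, read 578, 658 and 494 in mutants, against 691, 1070.3 and 889 in wild type. Its groups were separate, with a log2 difference of -0.59 (SE 0.19), an unadjusted limma p of 0.0193 and an adjusted p of 0.833. Pygo2, a coactivator of β-catenin, read 833, 768 and 822 in mutants, against 879, 1094 and 1054 in wild type, a log2 difference of -0.31 (SE 0.13). No array was shared between the ranges of the groups in either gene.

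Of 12 measured target genes, 8 had a lower mean in mutants, with a median log2 difference of -0.04. Ccnd1, which encodes cyclin D1, a driver of the entry into S phase, read 3584, 3431 and 3162 in mutants, against 4025, 4068 and 4506 in wild type with 1448698_at. The log2 difference was -0.31 (SE 0.11, unadjusted limma p of 0.0326), while its other probe sets gave -0.14 (SE 0.11) and 0.08 (SE 0.16). Nkd2, a feedback inhibitor that binds Dishevelled, read 208, 208 and 215 in mutants, against 242, 257 and 277 in wild type with 1419465_at, a log2 difference of -0.28 (SE 0.11), while its second probe set gave 0.05 (SE 0.18). In both genes another probe set had a higher mean in mutants.

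Among ligands, receptors, secreted modulators and cytoplasmic transducers, 1 gene had an unadjusted p under 0.05. Of 19 measured ligands and their secretion factors, 11 had a higher mean in mutants and 0 had an unadjusted p under 0.05. Wnt10a was the ligand of smallest p, at 144, 103 and 108 in mutants, against 82.1, 55.4 and 111 in wild type (log2 difference 0.47, SE 0.23). Of 16 receptors, 10 had a lower mean in mutants, and Fzd5, the one of smallest p, had a log2 difference of -0.32 (SE 0.18). Of 13 secreted modulators, 7 had a lower mean, and Dkk4, the one of smallest p, was within background on each array. Of 13 cytoplasmic transducers, 6 had a lower mean. Gsk3b, the kinase that marks β-catenin for destruction, read 305, 309.9 and 301 in mutants, against 248, 239 and 265 in wild type. Its groups were separate, with a log2 difference of 0.27 (SE 0.10), an unadjusted limma p of 0.0376 and an adjusted p of 0.833.

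**Figure D4:**
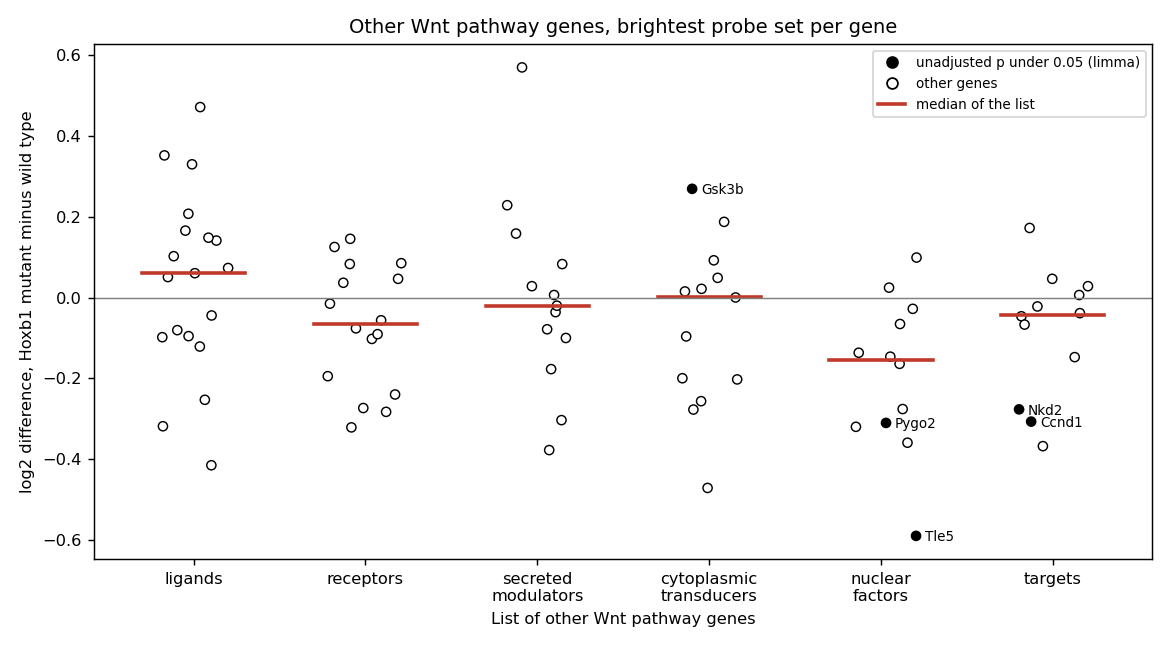
Log2 difference, Hoxb1 mutant minus wild type, of the brightest probe set of each other Wnt pathway gene in 6 lists, with the list median as a bar. Genes of unadjusted limma p under 0.05 are filled and named: Tle5, Pygo2, Ccnd1 and Nkd2 lie below 0 and Gsk3b at 0.27 above it.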

How the data were processed

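The authors deposited linear intensities, one value for each probe set, from Affymetrix 430A arrays, with total RNA as the starting material. Per the submitters' processing notes the tool was affy; no source used here gives the expression algorithm or any detection call. On each array the mean with 2% trimmed at each end was 500.0, which shows a scaling step, and no other normalization was added. The 64 control probe sets were left out. Symbols came from the platform annotation, updated through Entrez identifiers in a RefSeq table of assembly GRCm38.p6, and all 22 member probe sets matched. Values were transformed to log2(intensity + 16), which understates changes of dim probe sets, and tested for mutant minus wild type in R 4.3.3 with limma 3.58.1 (lmFit, then eBayes, 2-sided, no covariate, 6 arrays). The p-values were adjusted by Benjamini-Hochberg over all 22626 probe sets. Precision is limited by the number of arrays, and the median SE was 0.16. Background was the 95th percentile of 27 bacterial control probe sets. The Hoxb1 bound is a ratio of geometric group means of the intensities, with values below that percentile set to it. RefSeq promoters matched 8 of the 10 genes.

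The members and lists were chosen with earlier results of these data known. All members were named, with Hoxb1, from each other list the 2 genes of smallest p in each direction where under 0.05 (otherwise the 1 of smallest p), and the 3 probe sets nearest in pattern to the member of smallest p.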

Additional observations from a re-analysis of the deposited data

How the results depend on the processing

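Over 16 other settings, of which the 2 on 18S signal were chosen later, with the data seen, 0 member probe sets passed the adjusted threshold, and the smallest adjusted limma p was 0.404, with array weights. Of the 22 member probe sets, 14 kept their sign in each setting run. The number of all probe sets passing the adjusted threshold was 3 with quantile normalization, 4 with median centring, 2 without the dimmest 33.3%, 3 with trend and robust eBayes and 4 with array weights, against 0 in the report. Those at an unadjusted p under 0.05 numbered 2093 with array weights and 1059 to 1975 with 1 array left out, against 1303. The member count at that level, 5 in the report, was 3 with median centring, 3 with the replicate number as a block (replicate block), 2 to 6 with 1 array left out, 0 with the 18S covariate and 1 without both high-18S arrays. The median log2 difference of all probe sets was 0.03 with median centring, against -0.02 in the report. Signs turned in 8 probe sets, among them Tcf7l2 1426639_a_at, at 0.30 in the report. With array weights, Sfrp1 1438620_x_at was at -0.064, Ctnnb1 1420811_a_at at -0.0073 and Ctnnb1 1430533_a_at at -0.053. With the 18S covariate the Ctnnb1 probe sets 1420811_a_at, 1450008_a_at and 1430533_a_at were at -0.074, -0.082 and -0.10, and Tcf7l2 1425229_a_at at -0.12. Without both high-18S arrays these 4 were at -0.084, -0.099, -0.17 and -0.073; the 1 wild-type array left was assumed to vary like the mutants. With 1 array left out, Sfrp1 1438620_x_at ran from -0.13 to 0.089, Ctnnb1 1420811_a_at from -0.019 to 0.11 and 1430533_a_at from -0.094 to 0.19. The Tcf7l2 probe sets 1429428_at, 1429427_s_at, 1426639_a_at and 1425229_a_at ran from -0.048 to 0.32, -0.10 to 0.41, -0.12 to 0.59 and -0.23 to 0.50. The cause of these changes was not tested. Whether same-numbered arrays were paired could not be settled. The sample titles give mutant and wild-type arrays of the same replicate number matching code numbers, without saying what these mean. Same-numbered arrays had deviation correlations of 0.05, -0.02 and 0.04 for replicates 1, 2 and 3. Of the 6 arrays, 4 correlated best with their own number. With the block 0 members passed the adjusted threshold, as without it. Signal over background limits Fzd7 1450043_at and 3 of the 4 Tcf7l2 probe sets.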
